A study of Mus musculus with 8 samples.

Results

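The 8 genes described here either belong to the cell's defence against ferroptosis around Gpx4 and cystine uptake or act against it. They are found by gene symbol, with no threshold on measured values in the rule, and are 8 of 55335 genes in the deposited files. The defence side holds the cystine transporter subunits Slc7a11 and Slc3a2, the lipid peroxide reductase Gpx4, and Aifm2, Gch1 and Dhodh, which supply radical-trapping molecules. Lpcat3 and Por stand on the other side, since their products promote lipid peroxidation. Of all genes, 12177 had a mean of at least 5 CPM (counts per 1000000 of the TMM-scaled library size) and were called measured. All 8 genes were among them, and each was above 5 CPM in both libraries.

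CD8 T cells were sorted from tumours of wild-type C57BL/6 mice (WT) and of CD36 KO mice on a C57BL/6 background (CD36_KO), and their RNA was sequenced. B16, a mouse melanoma cell line, was given i.v. to both groups 14 days before the tumours were taken. The product of Cd36 is a scavenger receptor that imports fatty acids and oxidised lipoproteins. The sources used here state neither the age, sex and number of the mice nor the sorting gate. The labels restrict the KO to no cell type, so host cells other than T cells may carry it too, whereas the injected B16 cells are named alike for both groups.

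The 8 samples are titled as 4 lanes of 1 library per genotype, so n is 1 library per group, and no difference between genotypes has a replicate check or a test. Lanes held 2497048 to 2611740 estimated counts, with library totals of 10071960 (WT) and 10363391 (CD36_KO). Cd36, the targeted gene, had 1194 counts in WT and 358 in CD36_KO, a log2 ratio of -1.98 (95% counting interval -2.15 to -1.80). Its direction went with the labels. Over 12 markers the summed level was 148 to 165 TPM (transcripts per 1000000, scaled for length) in WT lanes and 700 to 770 in CD36_KO lanes, beside 1279 to 1388 and 456 to 466 TPM for 14 melanoma markers and 2188 to 2325 and 2306 to 2369 TPM for 17 macrophage markers. The CD8 T cell sum was thus below the macrophage sum in both libraries and below the melanoma sum in WT, although CD8 T cells are the labelled cell type. These sums cover unlike numbers of genes and do not measure shares of cells. Lyz2 alone gave 1316 TPM of the macrophage sum in WT and 1520 in CD36_KO.

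Ferroptosis is a form of cell death driven by iron-dependent peroxidation of polyunsaturated phospholipids. The transporter formed by Slc7a11 and Slc3a2 exchanges glutamate for cystine, cystine is reduced to cysteine for glutathione, and Gpx4 uses glutathione to reduce phospholipid hydroperoxides to alcohols. Aifm2 (FSP1), Gch1 and Dhodh act beside Gpx4 by renewing ubiquinol at the plasma membrane, making tetrahydrobiopterin, and reducing ubiquinone in the mitochondrial inner membrane. T cells lacking Gpx4 are known to accumulate lipid peroxides and die by ferroptosis.

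Gpx4 is a selenoprotein: a TGA codon, otherwise a stop, is read as selenocysteine in its active site. The codon with its surrounding coding sequence is shown for Gpx4 and for its abundant relative Gpx1, because both genes depend on the selenoprotein machinery described further on. Both stretches come from GENCODE M21 transcripts on GRCm38, 5′ to 3′, and capitals mark the selenocysteine codon. In transcript Gpx4-202 the codon lies in exon 3 at chr10:80054737-80054739 on the plus strand. In Gpx1 it lies in exon 1 at chr9:108339451-108339453 on the plus strand.
Gpx4: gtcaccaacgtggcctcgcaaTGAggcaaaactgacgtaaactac
Gpx1: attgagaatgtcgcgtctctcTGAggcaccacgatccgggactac

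Slc7a11 is a known target of ATF4, which binds amino acid response elements when amino acids run short, and of NRF2, which binds antioxidant response elements. RefSeq promoter windows (GRCm38.p6, 250 bases before to 50 after the start) were found for 7 of the 8 genes, with 4 windows for Gpx4 and none for Dhodh. They were searched on both strands for the letters TGATGCAA (amino acid response), TGACNNNGC (antioxidant response), GGGCGG (GC box) and CCAAT. Of 32817 windows of this length, 0.896% held TGATGCAA, 12.4% TGACNNNGC, 35.6% GGGCGG and 37.4% CCAAT. Among the 7 genes, only Slc7a11 held TGATGCAA, with 2 matches that read in opposite directions and begin 66 and 47 bases before the start. None of the 7 held TGACNNNGC in this window, which says nothing about sites elsewhere. GGGCGG was found for 5 genes (Gch1, Gpx4, Lpcat3, Por and Slc3a2) and CCAAT for 4 (Gch1, Gpx4, Lpcat3 and Slc7a11). The 120 bases before the start are shown for Slc7a11 and, beside it, for Gch1, a gene whose level differed little between the libraries. Capitals mark the matches to TGATGCAA for Slc7a11 and to GGGCGG and CCAAT for Gch1. Slc7a11 is read from the minus strand of chr3:50443614-50443733 and Gch1 from the minus strand of chr14:47189414-47189533.
Slc7a11: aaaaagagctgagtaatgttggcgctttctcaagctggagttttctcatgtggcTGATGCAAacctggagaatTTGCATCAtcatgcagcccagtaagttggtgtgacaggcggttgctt
Gch1: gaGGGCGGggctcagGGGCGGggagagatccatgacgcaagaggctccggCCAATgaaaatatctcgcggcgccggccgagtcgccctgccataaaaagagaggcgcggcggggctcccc

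In TMM-scaled CPM, Gpx4, both cystine transporter subunits, Aifm2, Lpcat3 and Por were lower in CD36_KO, at 50.7% to 68.3% of the WT level, while Gch1 and Dhodh were near it. No gene of the 8 was at least 2-fold lower (a log2 ratio of -1 or below whose counting interval excludes 0) and none at least 2-fold higher, against 10.8% and 6.5% of all measured genes. The interval lay below 0 for 6 of the 8, against 40.7% of all measured genes. For the same 6 genes the 4 CD36_KO lanes all lay below the 4 WT lanes, as they did for 33.3% of measured genes. The median log2 ratio of the 8, Lpcat3 and Por included, was -0.74, beside -0.13 for all measured genes. Of the 8, 6 lay below the median of all measured genes. These signs depended on the scaling. The log2 ratio was negative for 7 of the 8 genes with TMM, for 6 with total counts and for 3 in log2(TPM + 1), and the median of all measured genes moved from -0.13 with TMM to 0.06 with total counts and 0.37 in TPM. Relative to that moving median, 7 of the 8 genes lay below it in TPM. In TPM the lanes of the libraries overlapped for each of the 8 genes, whereas lanes lay apart with CD36_KO lower for 8.7% of measured genes and higher for 40.8%. In bulk RNA of a mixed sort, fewer cells of a type and less RNA per cell cannot be told apart.

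**Figure D1:**
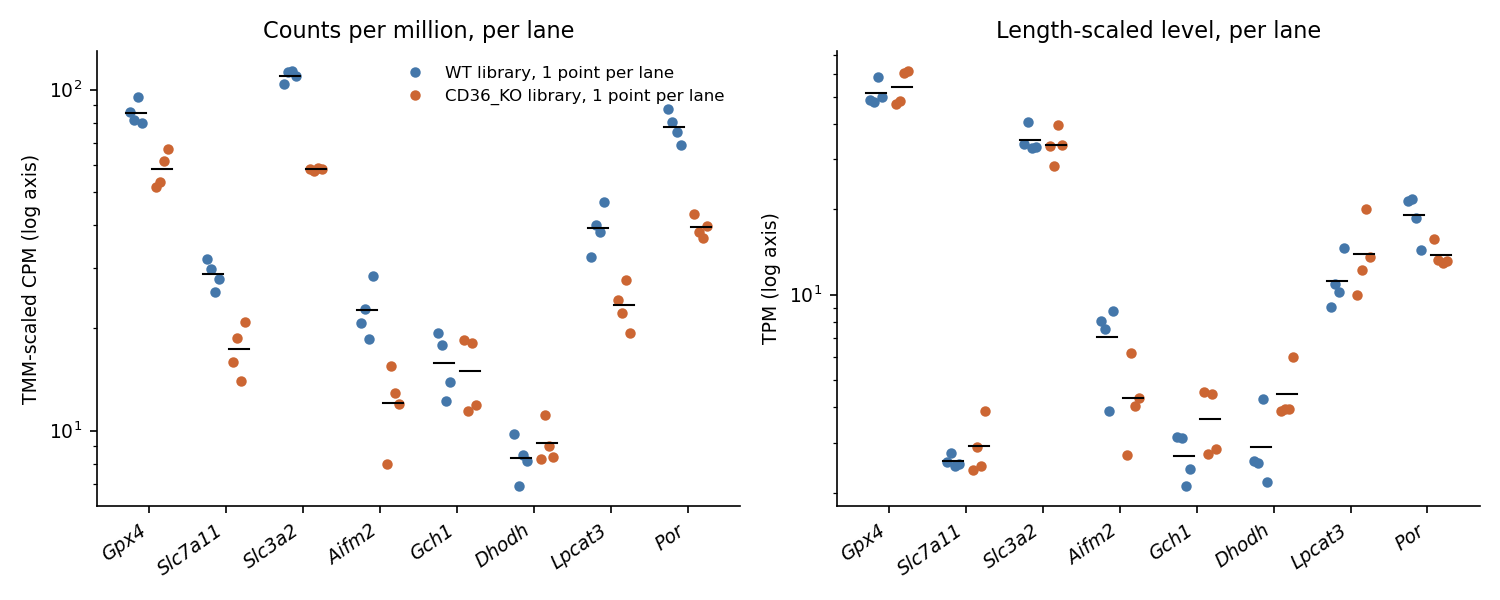
Level of each gene in every lane, as TMM-scaled CPM (left) and TPM (right), both on log axes, with 1 point per lane and a bar at the mean of 4 lanes of 1 library. On the left the CD36_KO lanes lie below the WT lanes for 6 of 8 genes; on the right the lanes overlap for all 8, with the gene's length and the lane's total taken into account.

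The cystine transporter was lower in CD36_KO in both subunits by CPM. Slc7a11 (ENSMUSG00000027737.10; chr3:49892526-50443614, minus strand) encodes the light chain xCT, which carries cystine in and glutamate out. Its WT lanes stood at 31.9, 29.7, 25.5 and 27.8 CPM and its CD36_KO lanes at 15.9, 18.7, 14.0 and 20.8 CPM. The highest CD36_KO lane was below the lowest WT lane. The library totals of 270 and 192 counts gave a log2 ratio of -0.73 (-1.005 to -0.46), which is 60.3% of the WT level (49.8 to 72.8). In TPM, which is scaled for transcript length, the means were 2.58 ± 0.12 in WT and 2.92 ± 0.68 in CD36_KO (SD over 4 lanes of 1 library), and the lanes overlapped.

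Slc3a2 (ENSMUSG00000010095.13; chr19:8706882-8723369, minus strand) encodes the heavy chain CD98hc, which brings several light chains to the cell surface. WT lanes stood at 103.6, 112.4, 113.1 and 109.6 CPM and CD36_KO lanes at 58.7, 57.9, 59.1 and 58.7 CPM, so the lanes were tight within a library and far apart between them. With 1032 and 650 counts the log2 ratio was -0.91 (-1.05 to -0.76). In TPM the levels were 35.2 ± 3.69 and 33.8 ± 4.59. Per length, over all transcripts, Slc3a2 stood at 13.6 ± 0.75 times the level of Slc7a11 in WT. In CD36_KO it stood at 12.1 ± 3.45 times, and the ranges overlapped. Transcripts annotated as keeping an intron made up 58.1% of the Slc7a11 TPM in WT and 73.8% in CD36_KO. In TPM of protein-coding transcripts alone, Slc3a2 was at 34.2 in WT and 31.9 in CD36_KO, and Slc7a11 at 1.08 and 0.697. Slc7a5, which encodes another light chain of Slc3a2 and carries large neutral amino acids, was named after its value was seen. It had 554 and 283 counts, a log2 ratio of -1.21 (-1.42 to -0.998). Over all transcripts its TPM was 3.84 ± 0.87 times that of Slc7a11 in WT and 2.18 ± 0.25 times in CD36_KO. These ratios also include the intron-keeping transcripts of Slc7a11.

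Gpx4 (ENSMUSG00000075706.10; chr10:80047166-80056439, plus strand) had the highest TPM of the 8 genes in both libraries. WT lanes stood at 86.0, 81.4, 95.5 and 80.0 CPM and CD36_KO lanes at 51.9, 53.8, 61.9 and 66.8 CPM. The ranges did not touch, but 2 CD36_KO lanes came closer to WT than the others. The totals of 807 and 650 counts gave a log2 ratio of -0.55 (-0.70 to -0.40), 68.3% of the WT level (61.5 to 75.8). This was the smallest reduction among the 6 genes whose interval lay below 0. In TPM the levels were 51.3 ± 4.89 and 54.2 ± 7.64, a log2(TPM + 1) ratio of 0.08, beside 0.37 for the median gene. Against Gpx1, the cytosolic peroxidase of hydrogen peroxide, the TPM of Gpx4 was 0.393 ± 0.029 of it in WT and 0.399 ± 0.045 in CD36_KO. The relation between these selenoenzymes therefore differed by less than the spread over lanes. Among Gpx4 counts, 87.0% in WT and 84.6% in CD36_KO fell on Gpx4-202, the transcript whose codon is printed above. Of its near-identical copies, the pseudogene Gpx4-ps1 was assigned 11 and 4 counts and Gpx4-ps2 was assigned 0 in both libraries. How many reads matched both Gpx4 and a copy was not measured.

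Aifm2 (ENSMUSG00000020085.15; chr10:61715263-61739260, plus strand), the ubiquinone reductase that works apart from glutathione, was lower by CPM with wide scatter. WT lanes stood at 20.7, 22.7, 18.6 and 28.5 CPM and CD36_KO lanes at 7.98, 15.5, 12.9 and 11.99 CPM. All 4 CD36_KO lanes were below the WT lanes. The counts of 213 and 134 gave a log2 ratio of -0.91 (-1.23 to -0.59). Without CD36_KO lane 2 it was -1.04 (-1.41 to -0.68) and passed the 2-fold rule. Aifm2 was also lower in log2(TPM + 1), at -0.60, from 7.06 ± 2.17 to 4.33 ± 1.45 TPM, but its lanes overlapped on that scale. Its 3′ end overlaps H2afy2 on the opposite strand, and no source used here states the strand setting, so reads of the overlap cannot be assigned by strand.

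Gch1 (ENSMUSG00000037580.10; chr14:47153895-47189413, minus strand) makes the first committed step to tetrahydrobiopterin. Its lanes lay at 19.4, 17.8, 12.3 and 13.9 CPM in WT and 18.4, 11.4, 18.0 and 11.9 CPM in CD36_KO, which overlapped nearly fully. From 149 and 166 counts the log2 ratio was -0.08 (-0.41 to 0.25), so a reduction or an increase larger than these bounds was not seen at this depth. The sign of this value changed with total counts (0.11) and in log2(TPM + 1) (0.33).

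Dhodh (ENSMUSG00000031730.18; chr8:109591343-109608673, minus strand), the mitochondrial enzyme of pyrimidine synthesis that passes electrons to ubiquinone, had the fewest counts of the 8. WT lanes stood at 9.81, 6.91, 8.47 and 8.16 CPM and CD36_KO lanes at 8.25, 11.1, 9.02 and 8.35 CPM. The lanes overlapped. With 79 and 102 counts the log2 ratio was 0.13 (-0.31 to 0.57), and in log2(TPM + 1) it was 0.48. With protein-coding transcripts alone, from 46 and 45 counts, the sign turned to -0.11 and the interval of -0.74 to 0.51 held the value of Gpx4, so a reduction of that size cannot be set aside at this depth.

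Lpcat3 (ENSMUSG00000004270.13; chr6:124663027-124704418, plus strand) places polyunsaturated acyl chains in phospholipids and so supplies the substrate of peroxidation. WT lanes stood at 32.3, 40.1, 38.3 and 47.0 CPM and CD36_KO lanes at 24.2, 22.1, 27.7 and 19.4 CPM. Every CD36_KO lane was below every WT lane. The log2 ratio from 371 and 259 counts was -0.76 (-0.99 to -0.52). On the TPM scale the order was the other way, 11.2 ± 2.42 against 14.0 ± 4.36, with overlapping lanes. Its end overlaps Emg1 on the opposite strand.

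Por (ENSMUSG00000005514.14; chr5:135670033-135735326, plus strand) encodes cytochrome P450 oxidoreductase, an electron donor in the endoplasmic reticulum that is known to feed lipid peroxidation. Its WT lanes stood at 87.7, 80.2, 75.2 and 68.9 CPM and its CD36_KO lanes at 43.3, 38.2, 36.8 and 40.0 CPM. The libraries were widely separated. The 734 and 439 counts gave -0.98 (-1.15 to -0.81), the lowest log2 ratio of the 8, and 50.7% of the WT level (44.9 to 57.1). It lay just inside the 2-fold limit, and without CD36_KO lane 1 it passed it, at -1.02 (-1.22 to -0.83). Por also remained lower in log2(TPM + 1), at -0.44, from 19.0 ± 3.42 to 13.7 ± 1.34 TPM, though lanes overlapped. Per length, Gpx4 stood at 2.78 ± 0.64 times Por in WT and 4.00 ± 0.83 times in CD36_KO, with overlapping ranges.

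**Figure D2:**
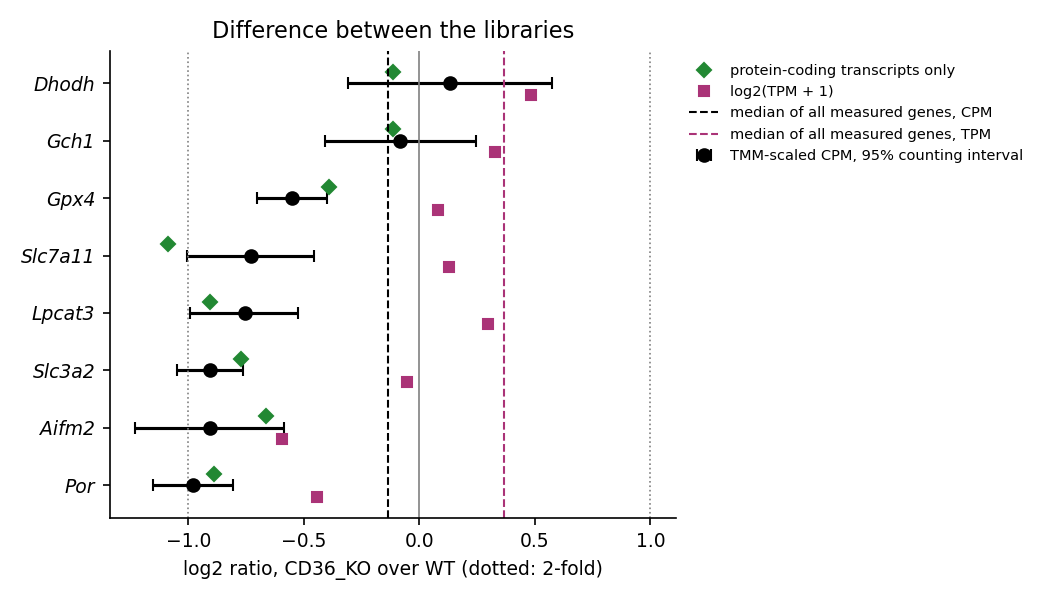
Log2 ratio of CD36_KO over WT for each gene from TMM-scaled CPM (black, bar: 95% counting interval), from protein-coding transcripts alone (green) and from log2(TPM + 1) (purple), with dashed lines at the median of all measured genes. By CPM 6 of 8 genes lie clear of 0 on the lower side; in TPM 3 of 8 are below 0 and 7 of 8 are below the median gene.

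By TPM, the order of levels was alike in both libraries at the top. In WT it ran Gpx4, Slc3a2, Por, Lpcat3, Aifm2, Dhodh, Gch1 and Slc7a11. Lanes of Por and Lpcat3 overlapped, as did those of each neighbouring pair from Aifm2 down to Slc7a11. In CD36_KO, Gpx4 and Slc3a2 led again without overlap, Lpcat3 (14.0) and Por (13.7) could not be ordered beyond their spread, and the same held for neighbours among Dhodh (4.45 ± 1.05), Aifm2 (4.33 ± 1.45), Gch1 (3.64 ± 0.98) and Slc7a11. The WT levels of Dhodh and Gch1 were 2.90 ± 0.95 and 2.70 ± 0.51 TPM.

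The counts of Slc7a11 were divided differently among its transcripts in the libraries. Transcripts annotated as retained intron, which keep an intron and code for no full protein, held 31.7% of its counts in WT (exact binomial interval 26.3 to 37.8) and 51.9% in CD36_KO (44.8 to 59.3). Lanes ranged from 26.4% to 37.5% in WT and from 36.4% to 62.1% in CD36_KO, so the ranges overlapped. These are Slc7a11-202 and Slc7a11-204, which lie at the 5′ end of the gene. On the TMM scale of whole genes, protein-coding transcripts of Slc7a11 went from 184.6 to 92.2 counts, 19.6 against 8.31 CPM, while retained-intron transcripts stood at 85.8 and 99.9 counts, 9.12 against 8.999 CPM. The log2 ratio of the protein-coding transcripts was -1.24 for Slc7a11 on this scale, -1.07 for Lpcat3 and -1.05 for Por. When the scaling was refitted on protein-coding transcripts alone, the log2 ratio of Slc7a11 was -1.09 (-1.47 to -0.72). It then passed the 2-fold rule, as did 9.22% of measured genes in the lower direction, while Lpcat3 was at -0.91 and Por at -0.89. In TPM of protein-coding transcripts Slc7a11 stood at 1.08 in WT and 0.697 in CD36_KO, the opposite order from its whole-gene TPM.

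The retained-intron share was higher in CD36_KO for 7 of the 8 genes. It went from 9.03% to 21.02% for Lpcat3, from 16.2% to 26.6% for Gch1, from 26.6% to 38.7% for Dhodh and from 1.63% to 6.07% for Por. The lanes of the libraries lay apart for Gch1 (13.3% to 21.8% against 24.2% to 32.9%) and Por (0% to 4.24% against 5.23% to 6.95%). They overlapped for the other genes, nearly fully for Lpcat3 (4.51% to 13.0% against 4.82% to 31.4%). For Dhodh they overlapped in part (19.8% to 47.0% against 32.1% to 48.6%). How often such lanes lay apart among all genes was not measured. For Slc3a2 the retained-intron share was 1.27% and 3.03%, and for Gpx4 0.167% and 0.616%, the latter from about 1.35 and 4.01 counts. Aifm2 went the other way, from 5.97% to 2.23%. The low shares rested on few counts: without WT lane 2 Por stood at 0.739% in WT, and the retained-intron counts of Gpx4 in WT and of Aifm2 in CD36_KO came from 1 lane each. The same direction was common in these libraries: of 7279 genes with counts on such a transcript and at least 20 counts per library, 66.8% had a higher share in CD36_KO, with a median difference of 1.68 percentage points. Over 11032 measured protein-coding genes, retained-intron transcripts took 6.89% of counts in WT and 8.98% in CD36_KO. A share of counts divided among overlapping isoforms is an estimate, and intervals cover counting error only. With protein-coding transcripts alone, Lpcat3 was lower in TPM as well, 7.67 against 5.35, and so was Por, 17.9 against 11.0, while Gpx4 was 50.6 and 53.0. This comparison of shares was chosen after the values were seen.

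**Figure D3:**
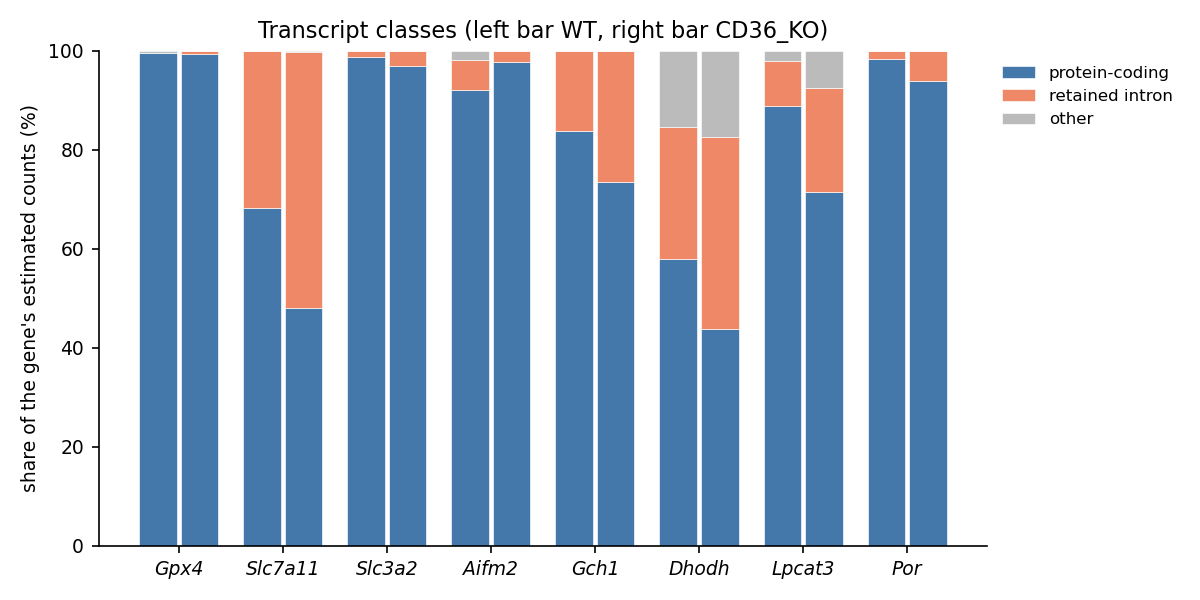
Share of each gene's estimated counts (percent) on protein-coding, retained-intron and other transcripts, left bar WT and right bar CD36_KO. The retained-intron part is larger in CD36_KO for 7 of 8 genes, from 31.7% to 51.9% for Slc7a11, and smaller for Aifm2.

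The genes around these 8 were followed in 9 lists with 129 genes, of which 114 were measured. At least 2-fold lower in CD36_KO were 18 and at least 2-fold higher 4, to be read beside 10.8% and 6.5% of all measured genes. With total counts 10 were lower, against 7.83% of all measured genes. In log2(TPM + 1), where the rule is the fold alone, 3 were lower and 7 higher, against 2.7% and 12.3%, and in log2(TPM + 0.1) 4 were lower and 12 higher, against 4.02% and 18.8%. List medians below are TMM values. In log2(TPM + 1), 8 of the 9 medians were above 0, on a scale where the median of all measured genes was 0.37. Set against that median gene, 8 of the 9 lists lay below it, and glutathione and cysteine supply lay 0.035 above.

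Downstream of cystine, the glutathione and cysteine supply list had a median of -0.04, with 1 of 14 measured genes at least 2-fold higher, 2 lower and 11 between. By CPM the ligase subunits had intervals that included 0. Gclc, the catalytic subunit of the rate-limiting ligase, was at 0.13 (-0.12 to 0.38) and its modifier Gclm at -0.13 (-0.39 to 0.13). Glutathione reductase Gsr was at -0.20 (-0.32 to -0.08). In log2(TPM + 1) these were 0.68, 0.36 and 0.46, beside 0.37 for the median gene. The lower genes were Anpep, a peptidase that cleaves cysteinylglycine outside the cell, at -1.40 and Slc25a39, the mitochondrial glutathione carrier, at -1.30. Ggt1, which breaks down glutathione outside the cell, was higher at 1.14 from 33 and 86 counts, and Cbs, of transsulfuration, was at 0.94. Slc7a11 and Slc3a2 thus had lower values than the enzymes that use the imported cysteine, by CPM, a difference that was not tested.

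For the selenoprotein machinery that Gpx4 needs, the median was -0.25 and 1 of 11 genes was at least 2-fold lower, none higher and 10 between. Eefsec, the elongation factor for selenocysteine, was at -1.05 and Scly, which frees selenium from selenocysteine, at -0.95. Secisbp2, which binds the selenocysteine insertion element, was at 0.62 and Sephs2, which makes the selenium donor, at 0.49. The steps of this pathway thus went both ways. Among 15 other measured selenoproteins the median was -0.42, and 1 was higher, 1 lower and 13 between. Selenoh was at -1.14, Selenom at -0.98, Gpx1 at -0.43 (-0.52 to -0.34) and Selenoo at 0.10. The secreted peroxidase Gpx3 was higher at 1.57 (1.35 to 1.80).

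Aifm2, Gch1 and Dhodh each have neighbours in a pathway of their own. In ubiquinone synthesis the list had 12 of 12 measured genes between, with a median of -0.27. Coq6 was at -0.77, Coq10b at 0.17 and Pdss2 at 0.22, and Coq2, which attaches the side chain, was at -0.27 (-0.57 to 0.03). In tetrahydrobiopterin synthesis and recycling, sepiapterin reductase Spr was at -0.73, Qdpr at -0.19 and Pts at 0.67, so the step after Gch1 and the last step differed in sign. Gchfr, the feedback regulator of Gch1, had 6 and 11 counts and was not measured. In pyrimidine synthesis 1 of 7 genes was lower and 6 between, with a median of -0.54. Ctps was at -1.42, its paralogue Ctps2 at 0.60, Uck1 at -0.33, and Umps, which acts directly after Dhodh, at -0.80 (-1.11 to -0.50), where Dhodh itself was at 0.13.

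The lists built around Lpcat3 and Por held more of the lower genes. They were drawn up by pathway, and not every gene in them is known to promote lipid peroxidation. For polyunsaturated phospholipid supply the median was -0.28, and 6 of 20 measured genes were at least 2-fold lower, none higher and 14 between. Acsl3, which activates monounsaturated fatty acids, was at -2.22 (-2.57 to -1.88) by CPM but at -0.28 in log2(TPM + 1), from 7.59 ± 1.47 to 6.06 ± 2.47 TPM, so its size depended on the scale. The desaturase Scd2 was at -1.93 by CPM and -1.34 in log2(TPM + 1). Acsl4, which activates the polyunsaturated acids that Lpcat3 uses, was at -0.72 (-0.88 to -0.57), close to Lpcat3 itself. Scd1 was at 0.38 and Lpcat4 at 0.56. Among microsomal electron donors and oxygenases the median was -0.69, and 6 of 15 were lower, 2 higher and 7 between. Haem oxygenase Hmox1 had 2098 and 608 counts (-2.03, -2.16 to -1.89), and Alox15, a lipoxygenase of macrophages, 4235 and 1410 counts (-1.82, -1.91 to -1.74). Nox4 was higher at 2.25 and Alox12 at 1.79, from 25 and 30 WT counts.

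Regulators of these genes stayed within the limit, with 16 of 16 measured between and a median of -0.14. Nfe2l2, which encodes NRF2, was at -0.04 (-0.19 to 0.11), and its antagonist Bach1 at -0.12 (-0.26 to 0.02). Atf4 was at -0.71 (-0.87 to -0.56), a value near that of Slc7a11 by CPM only. In log2(TPM + 1) Atf4 was at -0.20 and Slc7a11 at 0.13. Ddit3, of the same list, was at -0.31 (-0.73 to 0.11) by CPM. A link of Atf4 to the other genes was not tested. Otub1, a deubiquitinase known to stabilise the Slc7a11 protein, was at -0.85. Creb1 was at 0.24 and Sirt3 at 0.89. Chac1, an ATF4 target that degrades glutathione, was named after its value was seen: it had 33 counts in WT and 2 in CD36_KO, a log2 ratio of -4.28 (-7.39 to -2.32), and fell under the CPM minimum. Other pathway genes under that minimum passed the 2-fold rule in both directions. Coq7 was lower at -1.26 (-1.93 to -0.62), while Dpep1 was higher at 1.57 (0.62 to 2.63) and Elovl2 at 2.67 (1.60 to 3.94).

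**Figure D4:**
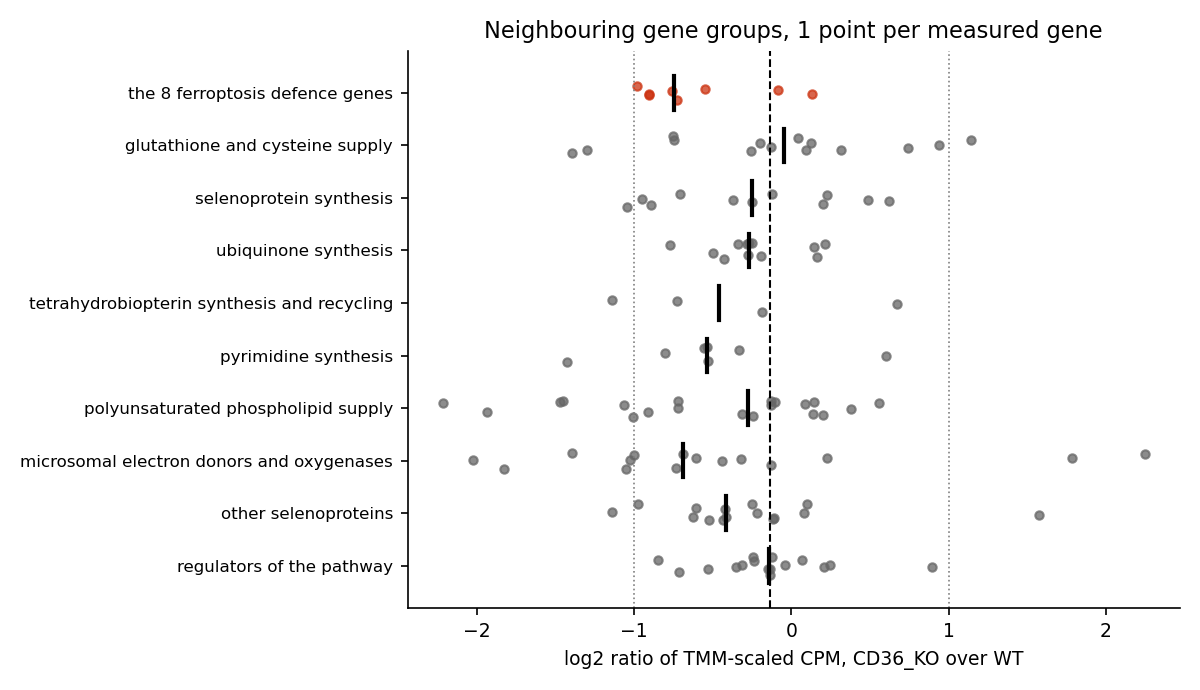
Log2 ratio of TMM-scaled CPM, CD36_KO over WT, with 1 point per measured gene for the 8 genes (red) and the 9 neighbouring lists (grey), a black bar at each median, a dashed line at the median of all measured genes (-0.13) and dotted lines at 2-fold. No red point passes a dotted line, and most points left of -1 are in the lists of phospholipid supply and of microsomal electron donors and oxygenases; in log2(TPM + 1) 8 of 9 list medians are above 0 and 8 of 9 are below the median gene of that scale.

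Markers of other cell types moved with the libraries, and their part in the values above was not tested. All 14 melanoma markers passed the 2-fold rule downwards in CD36_KO (median -2.26), and 5 of 7 measured fibroblast markers were lower, their sum being 122 to 138 TPM in WT lanes and 46.6 to 56.0 in CD36_KO lanes. All 12 CD8 T cell markers passed the 2-fold rule upwards (median 1.77). Hepatocyte markers were higher for 18 of 19 (128 to 157 against 604 to 633 TPM), B cell markers for 7 of 8 (21.8 to 22.8 against 107 to 112 TPM), neutrophil markers for 6 of 7 (48.3 to 56.2 against 293 to 329 TPM) and lung epithelium markers for 3 of 7 (44.4 to 59.1 against 244 to 280 TPM). Macrophage markers were lower for 4 of 17, and endothelial markers for 0 of 7 (42.8 to 48.9 against 70.0 to 71.2 TPM). No marker of the 9 lists was at 0 in either library. The most abundant were Trbc2 for T cells (28.3 against 168 TPM), Dct for melanoma (324 against 104), Lyz2 for macrophages (1316 against 1520), Trf for hepatocytes (75.3 against 111), Ighm for B cells (13.5 against 61.9), Col3a1 for fibroblasts (54.1 against 19.9), Pecam1 for endothelium (9.67 against 25.2), S100a8 for neutrophils (21.4 against 126) and Scgb1a1 for lung (23.2 against 177). The 8 genes are expressed in many cell types, and these libraries do not show which cells their counts came from.

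Genes whose pattern was most like that of Gpx4 and Slc7a11 were found among 11032 protein-coding genes by the root mean square difference of centred log2 CPM over the 8 lanes. The 8 lanes come from 2 libraries, so likeness here mostly reflects a like difference between the libraries. For Gpx4 these were Slc39a7, a zinc transporter of the endoplasmic reticulum (0.040, log2 ratio -0.57), Tnfrsf1a, a receptor of TNF (0.068, -0.55), and Mast4 (0.070, -0.59). For Slc7a11 they were Bin3 (0.052, -0.74), Tfdp1, a partner of E2F factors (0.068, -0.67), and Gpam, which starts glycerolipid synthesis (0.073, -0.74).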

How the data were processed

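Each deposited file lists estimated counts (not always whole) and TPM by transcript. Per the submitters' processing notes, kallisto, build GRCm38.p6 and DESeq2 were used; the sources used here state no versions, annotation release or strand setting. No normalisation was applied by the authors to the deposited estimated counts, and the deposited TPM values are scaled by the authors' tool for effective length and lane total.

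Counts of 142351 transcripts were summed per gene identifier, then over the 4 lanes of a library, and rounded. Lanes differed by little more than sampling noise (chi-square per degree of freedom 1.29 in WT and 1.25 in CD36_KO) and were counted as 1 library. TMM factors (edgeR 4.0.16, R 4.3.3) were 0.934 for WT and 1.071 for CD36_KO. Each gene's main value is a log2 ratio of TMM-scaled CPM, CD36_KO over WT, reported where the mean reached 5 CPM. Its 95% interval was derived by the exact Clopper-Pearson method from how a gene's counts split between the libraries. Intervals cover counting error only, since each genotype has 1 library. They may be too narrow even for that, since PCR reads lacking molecular identifiers are not independent molecules. The steps were also run on simulated data with counting noise only and few changed genes. That run cannot show how the scaling behaves where many genes differ, as between these libraries. Where a symbol had more than 1 identifier, the identifier with most counts stands for it.

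Alternatives were total counts, size factors from DESeq2 1.42.0, log2(TPM + 1), log2(TPM + 0.1), protein-coding transcripts alone, other CPM minimums and leaving out each lane. Named genes were the 8 genes, per pathway list the 2 highest and 2 lowest measured genes and those directly making or limiting a product of the 8, the most abundant gene per marker list, and the 3 nearest patterns for Gpx4 and Slc7a11; some genes the rule names are left out of the text. The 8 genes and all lists were chosen with earlier results of these data known. Coordinates are GRCm38, from GENCODE M21; promoter windows are from RefSeq.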

Additional observations from a re-analysis of the deposited data

How the results depend on the processing

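With 1 library per genotype, none of these ranges measures variation between animals. Leaving out each lane in turn gave log2 ratios of -0.61 to -0.44 for Gpx4, -0.82 to -0.62 for Slc7a11, -0.90 to -0.83 for Slc3a2, -1.04 to -0.71 for Aifm2, -0.19 to 0.09 for Gch1, 0.03 to 0.29 for Dhodh, -0.84 to -0.60 for Lpcat3 and -1.02 to -0.86 for Por. It left 0 to 1 of the 8 genes at least 2-fold lower (Aifm2 or Por, as given above). Of the neighbouring genes, 13 to 17 were lower and 3 to 5 higher, against 18 and 4. Of the 12177 measured genes, 1187 to 1332 were lower and 790 to 874 higher when a lane was left out. With total counts the values were -0.35 for Gpx4, -0.71 for Slc3a2 and -0.78 for Por, and 10 neighbouring genes were lower. In log2(TPM + 1) they were 0.0796 for Gpx4, 0.13 for Slc7a11, -0.0556 for Slc3a2, 0.33 for Gch1, 0.30 for Lpcat3 and -0.44 for Por, with 3 neighbouring genes lower and 7 higher. In log2(TPM + 0.1) they were 0.081 for Gpx4, 0.17 for Slc7a11, -0.057 for Slc3a2, 0.42 for Gch1, 0.60 for Dhodh, 0.32 for Lpcat3 and -0.47 for Por, with 4 lower and 12 higher, against 4.02% and 18.8% of all measured genes. With protein-coding transcripts alone they were -0.39 for Gpx4 and -1.09 for Slc7a11. On that setting 1 of the 8 genes was lower, against 9.22% of measured genes. Of 117 neighbouring genes measured that way 8 were higher, beside 870 of the 12177 measured genes. At a mean of at least 20 CPM, 1 of 72 neighbouring genes was higher, and the share of all genes at that minimum was not counted. Size factors of DESeq2 moved no value beyond its counting interval. As a share of TPM in place of counts, the retained-intron part of Slc7a11 was 58.1% in WT and 73.8% in CD36_KO; the cause was not tested. No paired analysis was possible because each genotype has 1 library, lanes are not replicates, and no value here comes from a test.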
